A study of Vitis vinifera with 26 samples.

Results

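The loci described here are genes of the grapevine berry for which the authors' transcript assembly lists many splice forms, at least 1 of them absent from the reference annotation. A locus is a stretch of the genome whose assembled transcripts (isoforms) overlap. Loci were chosen from the deposited attribute table alone, without any expression value: at least 10 isoforms, at least 1 isoform of class code j, exactly 1 reference identifier and no isoform of class code x. Class code j marks an assembled form that shares at least 1 splice junction with an annotated form and differs from it elsewhere, = marks a form that matches an annotated form, and x marks a form on the opposite strand. Of 33229 assembled loci, 1454 had 10 or more isoforms, 1427 of these had a j form, 1423 had no x form and 893 had a single reference identifier. At the edge of the rule, 215 of the 893 loci had exactly 10 isoforms, and 286 loci with 9 isoforms met every other condition. Class j forms are called new splice forms below, and class = forms reference forms.

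The libraries came from berry clusters of Vitis vinifera 'Pinot Noir', on plants 8 years old, at 6, 7 and 8 weeks after anthesis (WAA), the weeks around the onset of ripening. In each week the treated clusters were enclosed in a bag for 24 h with 1-methylcyclopropene (1-MCP) at 5 ppm, and the control clusters had a mock treatment, with sampling after 24 h. There were 3 plants at 6 WAA and 5 each at 7 and 8 WAA, with 1 treated and 1 control library per plant, 26 libraries in all. All groups share the cultivar and differ in week and treatment only as far as the labels state. The description label calls every library, controls too, a treated cluster, so the controls are known from the source names. Whether the weeks share plants is not given.

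A single plant gene gives rise to several mRNAs when introns are retained or splice sites and first exons are exchanged, and intron retention is the form of alternative splicing most often seen in plants. Such forms can code for other proteins or carry early stop codons that send the mRNA to nonsense-mediated decay. The gas 1-MCP occupies ethylene receptors and blocks the hormone's signal. Grape is a non-climacteric fruit, whose ripening is not driven by a burst of ethylene, although the berry does respond to the hormone around the onset of ripening. The comparisons address whether the blocked receptor, or the passing weeks, moved the balance between new and reference forms at these loci.

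The deposited values of a library step up in equal amounts, 1.027 in 18 libraries and no more than 1.055 in the others, and values divided by that step are called units here. Units are not taken as reads here, since what they stand for is not given, and the number of reads behind them is unknown. Each library held 20368 to 23485 units over all loci, of which 1699 to 1929 (7.83% to 8.67%) lay in the 893 loci. Detection, at 0.5 unit or more, was reached by 825 to 863 of the 893 loci per library. A locus held 1.90 to 2.16 units on average, so most shares within a locus rest on very few units. Of 23218 pairs of a locus and a library, 5.12% were listed at 0, 32.0% held 1 unit, 34.1% held 2 and 28.1% held 3 or more. In bulk tissue, fewer cells that use a form and less of it per cell cannot be told apart.

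The 893 loci held 11731 isoforms, of which 6549 were reference forms and 5162 were new splice forms. A locus had 10 to 38 isoforms, with a median of 12, made up of a median of 7 reference forms and 5 new forms. New forms outnumbered reference forms in 282 loci, and 51 loci had only 1 reference form. The loci spanned 2560 to 300216 bases, with a median of 11546. In 717 of the 893 loci the isoforms fell into more than 1 group by transcription start site. Chromosome 8 held most of the loci (76, or 4.33% of its assembled loci), and chromosome 3 held 19 (1.40% of its loci). The unplaced sequence Un held 25, or 0.808% of its loci.

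New forms were about as long as the forms they vary. Their median length was 2645 bases, against 2719 bases for reference forms, and the median new form was longer than the median reference form in 455 of the 893 loci. Set against its nearest reference form, a new form was longer in 2456 cases (47.6%) and shorter in 2701 (52.3%), with a median difference of -10 bases and quartiles of -328 and 288 bases. The new forms found in 13 or more libraries were longer than that form in 40.4% of 329 cases, with a median difference of -65 bases. Those found in 1 library were longer in 46.7% of 1678 cases, and those found in none in 51.0% of 766 cases.

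Most new forms began where a reference form begins. They shared a start site group with a reference form of their locus in 78.8% of cases, against 72.9% of the new forms in loci with 5 to 9 isoforms that met the rest of the rule. The other 1096 new forms belonged to start site groups without a reference form, and they lay in 336 loci. These 1096 forms took 20.3% to 26.7% of the units of new forms in a library, with a median of 23.9%, close to their share of the forms (21.2%). Their share of the new-form units was 23.3% ± 2.31 (SD, n = 3) in controls at 6 WAA, 24.3% ± 1.43 (SD, n = 5) at 7 WAA and 23.2% ± 1.84 (SD, n = 5) at 8 WAA. In treated clusters it was 23.4% ± 0.660 (SD, n = 3), 24.0% ± 0.891 (SD, n = 5) and 24.2% ± 0.564 (SD, n = 5). The 6 groups overlapped and differed by less than the SD of the controls.

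Reference and new forms differed in how often they were found. Of the 6549 reference forms, 2555 (39.0%) reached 0.5 unit in at least 1 library, against 4396 (85.2%) of the 5162 new forms. The order turned around for frequent detection: 660 reference forms (10.1%) and 329 new forms (6.37%) were found in 13 or more libraries, and 84 reference forms against 27 new forms in all 26. As many as 1678 new forms (32.5%) were found in exactly 1 library, against 665 reference forms (10.2%). Among the forms found at all, the median number of libraries was 4 for reference forms and 2 for new forms. Which libraries entered the assembly is not given in the sources used here, and its part in the contrast was not tested.

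**Figure D1:**
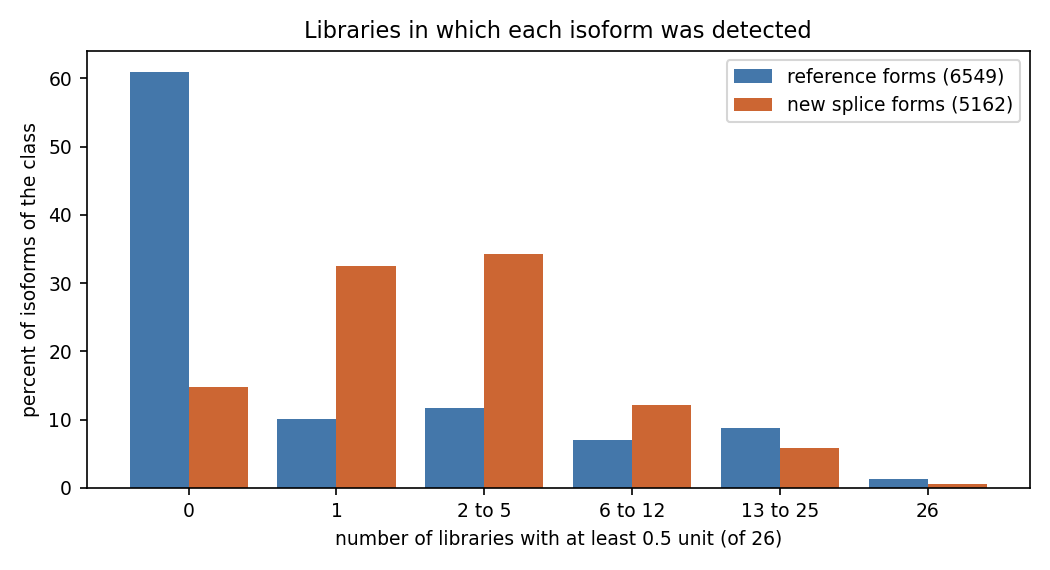
Percent of the reference forms (blue) and of the new splice forms (orange) of the 893 loci, by the number of libraries, of 26, in which the form reached 0.5 unit. In no library were 61.0% of reference forms and 14.8% of new forms found, and 34.2% of new forms were found in 2 to 5 libraries.

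A library showed few forms of a locus at a time. Detected loci had on average 1.60 to 1.92 detected isoforms per library, although over all 26 libraries a locus showed a median of 8. The isoform with most units changed from library to library. Among the 495 loci detected in all 26 libraries, the lead passed among a median of 5 isoforms, 307 loci had 5 or more leaders and 18 kept the same leader throughout, with ties given to the form listed first. The most frequent leader was a reference form in 534 of the 893 loci and a new form in 357. It was the longest form in 43 loci, and the first-numbered reference form in 184. The treated and the control cluster of the same plant agreed on the leader in 42.3% of loci (median of 13 pairs, range 38.6% to 45.9%). A treated and a control cluster of different plants in the same week agreed in 41.9%, libraries of the same group in 41.5% and libraries of different weeks in 41.6%. Agreement on the leading form was therefore alike in these kinds of pair, within the range of the pairs. Libraries of different weeks were of the same or of different treatment. With so few units per locus and ties given by list order, this agreement can hardly show whether a plant, week or treatment shares its leader.

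The share of new forms was first taken over all 893 loci together, as the units of new forms in percent of the units of new and reference forms. In controls it was 47.4%, 47.0% and 46.3% in replicates 1 to 3 at 6 WAA. At 7 WAA, controls 1, 2, 3, 4 and 12 had 44.4%, 46.8%, 45.6%, 49.5% and 47.4%. At 8 WAA, controls 1 to 5 had 45.4%, 45.6%, 49.2%, 43.9% and 45.8%. The control values of the 3 weeks overlapped. Their means were 46.9% ± 0.560 (SD, n = 3), 46.7% ± 1.92 (SD, n = 5) and 46.0% ± 1.95 (SD, n = 5), so the weeks differed by less than the spread between plants. As a sum over loci chosen with earlier results known, the share was given no test.

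After 1-MCP the pooled share was 51.9%, 47.8% and 46.8% in replicates 1 to 3 at 6 WAA. At 7 WAA, treated replicates 1, 2, 3, 4 and 12 had 48.2%, 49.7%, 47.7%, 44.9% and 49.5%, and at 8 WAA replicates 1 to 5 had 48.6%, 46.5%, 47.3%, 44.0% and 47.4%. The treated cluster had the higher share in 11 of 13 plants, by 1.23 ± 2.45 percentage points (SD, n = 13). By week the difference was 1.97 ± 2.23 points (SD, n = 3; higher in 3 of 3 plants), 1.25 ± 3.37 points (SD, n = 5; 4 of 5) and 0.751 ± 1.88 points (SD, n = 5; 4 of 5). The mean difference was thus smaller than its SD between plants in every week. When each locus counted alike, as the mean of the locus shares, treated clusters were higher in 8 of 13 plants, by 0.945 ± 2.43 points (SD, n = 13).

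Other quantities moved with this difference. Treated libraries held 760 ± 777 more units over all loci than their controls (SD, n = 13; higher in 12 of 13 plants). In the 893 loci they held 63.5 ± 73.2 more units of new forms (higher in 11 of 13) and 24.6 ± 46.0 more units of reference forms (higher in 10 of 13). The 3030 loci with 5 to 9 isoforms showed a difference of the same size, 1.15 ± 1.76 points (SD, n = 13; higher in 10 of 13 plants). Over the 26 libraries the shares of these loci and of the 893 loci ran together, with Pearson's r of 0.815 and Spearman's rho of 0.747, as a description over values from the same libraries. The part of library size in the shift was not tested.

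**Figure D2:**
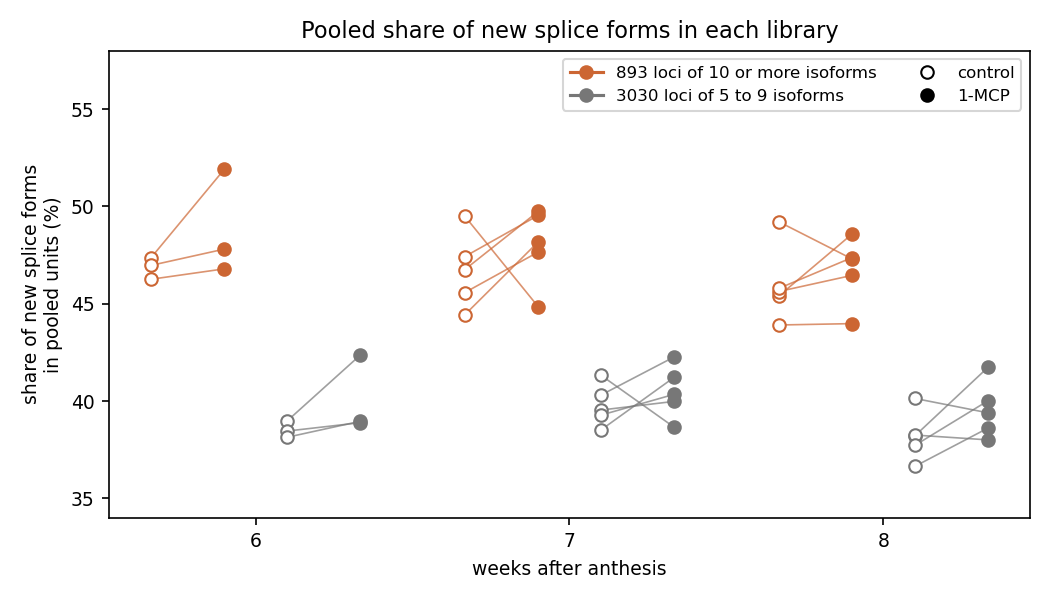
Pooled share of new splice forms (percent of the units of new and reference forms, axis from 34% to 58%) in each library, by week, for the 893 loci (orange) and for 3030 loci of 5 to 9 isoforms (grey). Open points are controls, filled points 1-MCP libraries, and lines join the clusters of a plant. Both sets were higher in the treated cluster of most plants (11 and 10 of 13), and the 893 loci lay above the other set in every library.

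The 893 loci carried more of their units in new forms than loci with fewer isoforms. Their share exceeded that of the 5 to 9 isoform loci by 4.90 to 9.54 points in each of the 26 libraries, with a mean of 7.63. The percentage of isoforms that were new was nearly the same, 44.1% in the 893 loci and 43.0% in the 5 to 9 isoform loci. The number of forms differed by the rule itself. A locus had a median of 5 new and 7 reference forms in the 893 loci, against 2 and 4 in the 5 to 9 isoform loci. Within the 893 loci the share was higher in loci with more isoforms. It had a median over the 26 libraries of 40.6% in the 375 loci of 10 to 11 isoforms, 47.2% in the 304 loci of 12 to 14, 50.4% in the 157 loci of 15 to 19 and 65.9% in the 57 loci of 20 or more. The share of isoforms that were new ran over the same classes from 40.7% through 44.1% and 45.1% to 51.9%. Membership and these classes are set by the number of listed forms, new ones included. Of the reference forms of the 893 loci 61.0% were found in no library, against 14.8% of the new forms. The part of this listing in the shares was not tested.

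The share of new forms was highest in the loci with most units. In loci with a mean of 1 to 2 units the median share was 42.8% (479 loci), in those with 2 to 3 units 47.6% (286 loci) and in those with 3 to 5 units 47.5% (78 loci). The 12 loci with 5 units or more had a share of 79.3% to 88.2%, with a median of 83.7%, although 72.9% of their isoforms were new. Only 3 loci held 4 or more units of reference forms on average, whereas 13 held 4 or more units of new forms. The number of new forms ran with their units across the 893 loci (Spearman's rho 0.634), and the number of reference forms with theirs (rho 0.410), as descriptions over loci that share their libraries. New forms are listed only where the assembly found them, and which libraries entered it is not given. The number of new forms and their units may therefore not be independent, which was not tested. Against the total units of the locus, rho was 0.236 for the number of isoforms, 0.213 for new forms and -0.0436 for reference forms.

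**Figure D3:**
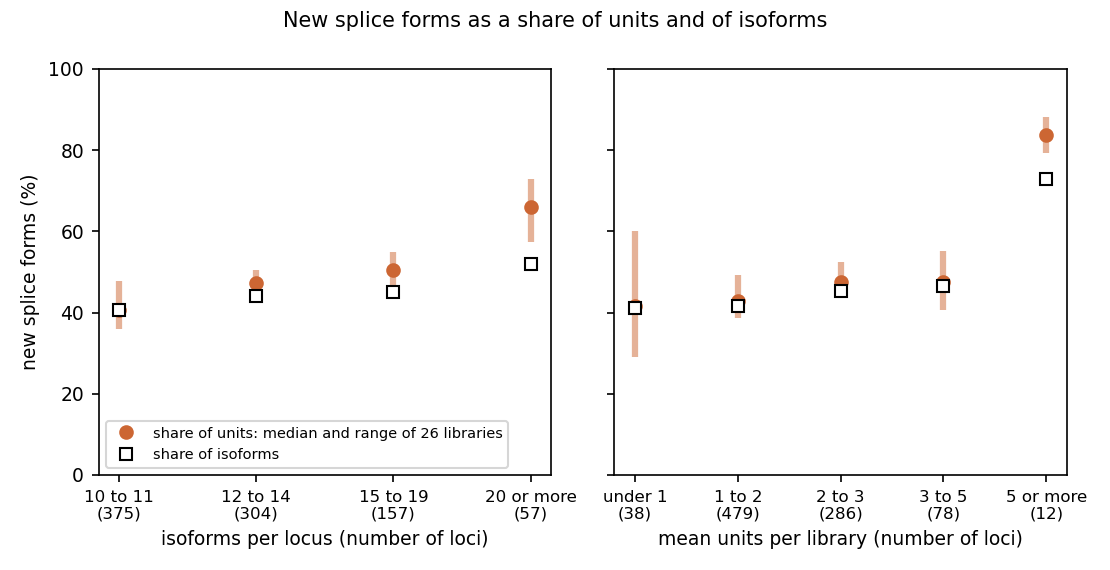
New splice forms as a share of units (orange points, median of 26 libraries, with bars from the lowest to the highest library) and as a share of listed isoforms (open squares), in percent, by the number of isoforms of the locus (left) and by its mean units (right), with the number of loci in brackets. The share of units runs from 40.6% to 65.9% over the isoform classes and reaches 83.7% in the 12 loci of 5 or more units.

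The 5 loci with most units were carried mostly by new forms, with a mean share of 83.4% to 100% over the libraries. XLOC_026331 (reference identifier VIT_207s0005g03350, chromosome 7, 6219794 to 6235326 in the files' coordinates) had 2 reference and 15 new forms and a mean of 9.73 units. Its new forms held 8, 5 and 9 units in controls at 6 WAA, 8, 8, 9, 9 and 8 at 7 WAA and 7, 8, 10, 7 and 11 at 8 WAA. Treated clusters held 10, 9 and 8, then 8, 9, 9, 6 and 6, then 9, 8, 8, 6 and 8 units of new forms. Reference forms of this locus held 1 or 2 units in every library, and the groups overlapped throughout. A new form of 1518 bases led in 76.9% of its libraries.

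XLOC_026101 (VIT_207s0104g00200, chromosome 7, 1458438 to 1482653) had 7 reference and 17 new forms. Its reference forms held 1 unit, within 0.01, in all 26 libraries, while its new forms held 5 to 10. The same new form of 1473 bases led in all 26 libraries, which makes the locus the steadiest of the 5. In controls the new forms held 7, 8 and 8 units, then 10, 7, 8, 9 and 9, then 5, 9, 9, 7 and 8 over the 3 weeks. In treated clusters they held 9, 9 and 8, then 7, 8, 7, 9 and 8, then 8, 8, 8, 6 and 7. Reference forms were at 1 unit, within 0.01, in every library in 10 of the 893 loci, whereas new forms were so in none.

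XLOC_017893 (VIT_202s0236g00140, chromosome 2, 5573391 to 5598506) had the most new forms of the 893 loci, 34 beside 3 reference forms. Reference forms were listed at 0 in 24 of its libraries and held 2 units in control replicate 12 at 7 WAA and 1 unit in control replicate 5 at 8 WAA. New forms held 5, 8 and 7 units in controls at 6 WAA, 11, 7, 7, 9 and 1 at 7 WAA and 6, 6, 10, 8 and 6 at 8 WAA. The library with 2 units of reference forms was also the one with least of the new forms among the controls. Treated clusters held 9, 9 and 5 units, then 9, 11, 10, 5 and 8, then 2, 7, 9, 6 and 5.

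XLOC_026566 (VIT_207s0129g00290, chromosome 7, 15562934 to 15586475) had 16 reference and 18 new forms and a mean of 7.10 units. New forms held 86.1% of its units on average, although they made up little more than the reference forms in number. XLOC_011916 (VIT_216s0100g00290, chromosome 16, 15473754 to 15723029) had 3 reference forms, listed at 0 in every library, and 27 new forms. Its new forms held 4, 8 and 6 units in controls at 6 WAA, 4, 5, 7, 5 and 0 at 7 WAA and 8, 7, 5, 4 and 4 at 8 WAA. Treated clusters held 8, 7 and 14, then 5, 4, 9, 10 and 5, then 6, 8, 3, 9 and 6 units. Reference forms were listed at 0 in all libraries in 69 of the 893 loci, and new forms in 34.

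**Figure D4:**
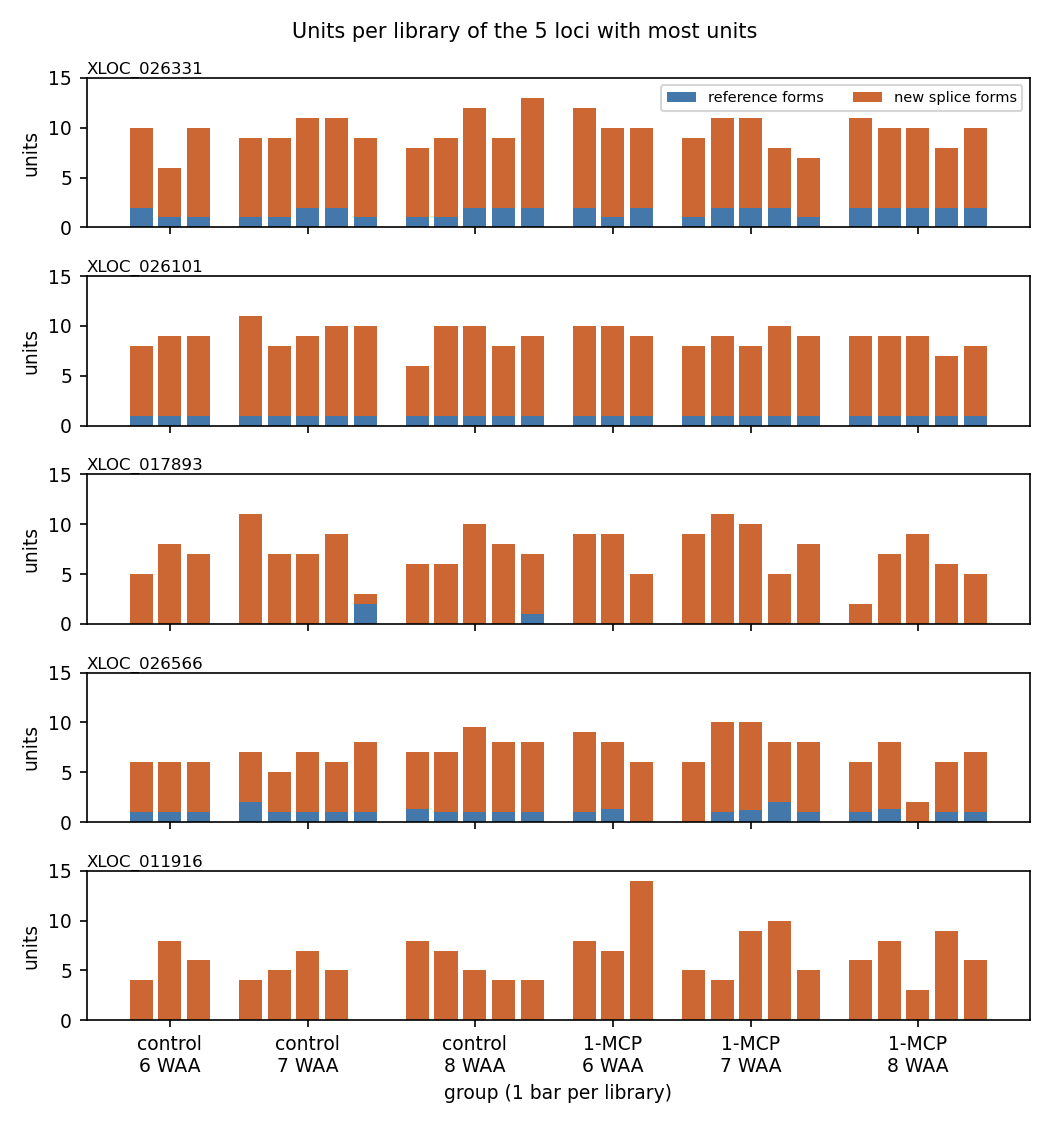
Units per library of the 5 loci with the highest mean units, 1 panel per locus and 1 bar per library, grouped by treatment and week, with reference forms in blue and new splice forms in orange stacked on them. New forms make up most of every bar but 1, 1 library of the lowest panel has no units, and the control and 1-MCP bars overlap in height in each week.

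Of the 5 loci with most isoforms, XLOC_017893 and XLOC_026566 were also among the 5 with most units, and the other 3 held fewer. The locus with most isoforms, XLOC_015335 (VIT_218s0157g00210, chromosome 18, 19034210 to 19051342), had 38 isoforms, 18 reference and 20 new, but a mean of 2.73 units. As many as 16 of its isoforms led in turn, and the most frequent leader did so in 12.5% of libraries. XLOC_006468 (VIT_213s0064g01280, chromosome 13), with 16 reference and 16 new forms, held 3.35 units with a mean share of new forms of 35.9%. XLOC_003643 (VIT_211s0016g03860, chromosome 11), with 17 reference and 13 new forms, held 1.91 units with a share of 79.4%. Loci of like number and make-up of isoforms thus lay on either side of an even split.

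Single loci spread over the whole range of shares. The mean share of new forms over the libraries of a locus had a median of 35.7%, with quartiles of 13.2% and 74.7%. It was over 90% in 151 loci, under 10% in 179 and over 50% in 343. It exceeded the share of isoforms that were new in 388 loci. In a single library the share was mostly all or nothing. Of 22008 pairs of a locus and a library with at least 1 unit in the 2 classes, 42.5% had a share of 0%, 26.7% had 100% and 30.8% lay between. In the 494 loci with a share in all 26 libraries, 211 went from 0% in some library to 100% in another, 24 stayed at 0% and 23 at 100%. The median SD over the libraries was 23.1 points.

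Averaged over libraries, the loci kept much the same order of share across conditions. Over these 494 loci the mean share in the 13 control libraries and that in the 13 treated libraries had a Spearman's rho of 0.929, and the means of controls at 6 WAA (3 libraries) and at 8 WAA (5 libraries) a rho of 0.830. Both are descriptions over loci measured in the same libraries, and a high rho does not show that single loci kept their share. Treated clusters had the higher mean share in 229 loci and the lower in 220, with a median difference of 0 and quartiles of -4.40 and 6.11 points. From 6 to 8 WAA in controls, 186 loci were higher and 214 lower in mean share, again with a median of 0, and with quartiles of -11.1 and 6.67 points. These were 37.7% and 43.3% of the 494, against 33.2% higher and 34.8% lower over all loci with both classes and a share in every library. Over all 4639 loci with both classes and a share in every library, 42.5% were higher and 39.8% lower after 1-MCP, against 46.4% and 44.5% of the 494, which had fewer ties.

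**Figure D5:**
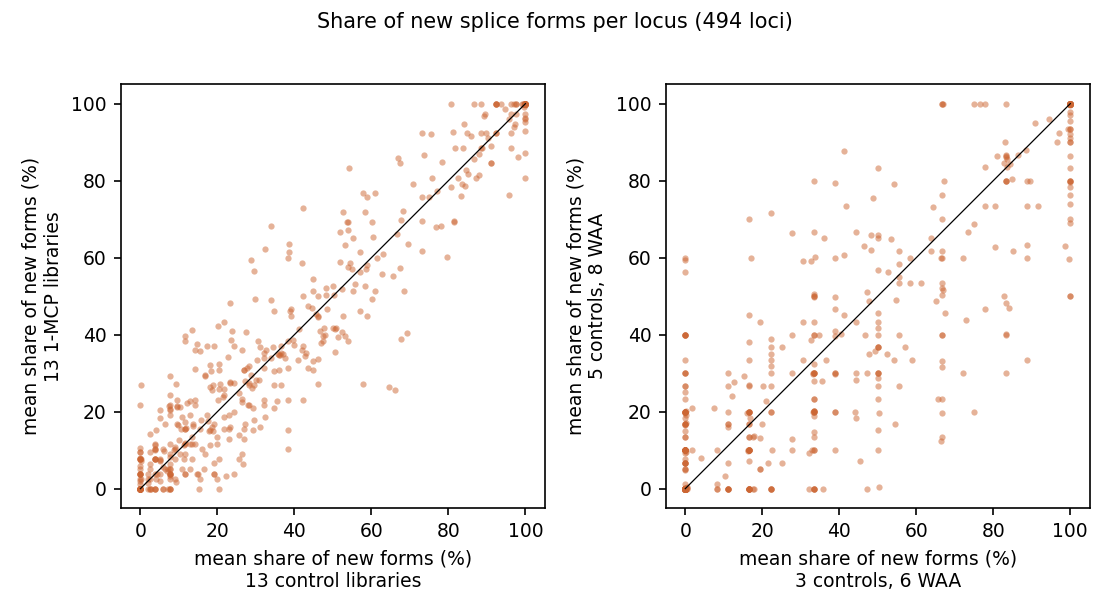
Mean share of new splice forms (percent) of each of the 494 loci with a share in all 26 libraries. Left, 13 control libraries on the x axis against 13 1-MCP libraries on the y axis (rho 0.929); right, 3 controls at 6 WAA against 5 controls at 8 WAA (rho 0.830), where the few libraries set the values in columns. The line marks equal shares.

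The level of the loci, as the sum of all their isoforms, was tested with limma on log2(value + 1) over all loci of the table. A call is a Benjamini-Hochberg adjusted p under 0.05 over all features tested. Of the 893 loci, 892 passed the filter on low values in the 1-MCP fit and 891 in the fit of controls. After 1-MCP none of the 892 was called at 6 WAA, where 0.043% of all loci were called, none at 7 WAA (0.00537% of all loci) and none at 8 WAA (0% of all loci). At an unadjusted p under 0.05, limma gave 42, 67 and 54 of the 892 loci in the 3 weeks (4.71%, 7.51% and 6.05%), against 6.78%, 5.49% and 4.52% of all loci tested. The median difference of the 892 loci was 0.01, 0.02 and 0.03 on the log2 scale in the 3 weeks, against 0.00, -0.01 and 0.00 over all loci tested.

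Over the weeks in controls, 2 of the loci were called in level, both as lower. From 6 to 7 WAA none of 891 was called (0.169% of all loci), with 41 at an unadjusted p under 0.05 (4.60%, against 5.54% of all loci tested). From 7 to 8 WAA 1 was called (0.594% of all loci) and from 6 to 8 WAA 2 (1.19% of all loci), which is 0.112% and 0.224% of the 891. At an unadjusted p under 0.05, limma gave 41 and 46 loci in these comparisons (4.60% and 5.16%). Over all loci tested the percentages were 7.22% and 8.08%. The medians of the 891 loci were 0.03, 0.00 and 0.01 on the log2 scale from 6 to 7, 7 to 8 and 6 to 8 WAA, against 0.01, 0.00 and 0.01 over all loci.

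The first of the 2 loci was XLOC_032061 (VIT_200s0229g00080, sequence Un, 15428038 to 15432258), with 7 reference and 4 new forms. It held 2, 3 and 2 units in controls at 6 WAA, 2, 2, 3, 3 and 2 at 7 WAA and 1 unit in each of the 5 controls at 8 WAA. Every control at 8 WAA thus lay below every earlier control. The locus fell by 0.76 ± 0.11 (SE) on the log2(value + 1) scale from 7 to 8 WAA (limma, adjusted p = 0.00986) and by 0.72 ± 0.13 from 6 to 8 WAA (limma, adjusted p = 0.0343). The 5 controls at 8 WAA held the same units, so the SE and p-values measure no spread between plants in that week. The locus is named because of these calls, so the gap between its weeks is no separate support. Treated clusters held 2, 2 and 2 units, then 3, 2, 3, 2 and 3, then 2, 1, 1, 0 and 2. The treated libraries in place of the controls gave adjusted p-values of 0.443 and 0.73, and its units were nearly all those of reference forms. In the fit of all 26 libraries with a mean per group both calls were lost, with adjusted p-values of 0.127 from 7 to 8 WAA and 0.225 from 6 to 8 WAA. From 6 to 8 WAA the call was also lost when control 2 or control 3 of 6 WAA, or any 1 control of the last week, was left out, with adjusted p-values up to 0.144.

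The second was XLOC_012509 (VIT_217s0000g03520, chromosome 17, 3406289 to 3418039), with 5 reference and 6 new forms. It held 2, 1 and 1 units in controls at 6 WAA. Replicate 12 was the one control of 7 WAA with a unit, and all 5 controls of 8 WAA were listed at 0. From 6 to 8 WAA the adjusted p was 0.0446 (limma). The locus met the filter, 3 or more controls at a value of 1 or more, only through 6 WAA, the week where it was high. That adjusted p is therefore no independent support for a fall. Treated clusters ran the other way, listed at 0 in all 3 at 6 WAA, with 1, 2, 0, 1 and 0 units in the 5 of 8 WAA, where the adjusted p was 0.726 with the sign turned. The call was lost when any 1 control of 6 or 8 WAA was left out, with adjusted p-values from 0.0861 to 0.123.

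The balance of new against reference forms was tested as log2(units of new forms + 1) minus log2(units of reference forms + 1), on the deposited values, over all loci with both classes. None of the 892 loci was called after 1-MCP at 6 WAA (0% of all loci with both classes), at 7 WAA (0%) or at 8 WAA (0.0107%). At an unadjusted p under 0.05, limma gave 58, 63 and 56 of the 892 (6.50%, 7.06% and 6.28%), against 5.85%, 5.65% and 5.37% of all loci with both classes. None of the 891 loci was called in controls from 6 to 7 WAA (0.022% of all such loci), from 7 to 8 WAA (0.253%) or from 6 to 8 WAA (0.143%), with 50, 37 and 50 at an unadjusted p under 0.05 (5.61%, 4.15% and 5.61%, against 5.49%, 5.99% and 7.32% of all such loci). With the libraries of a single week and the block for plants, limma called 3 balances of these loci at 6 WAA, of 31 over all loci with both classes, and 1 of 3 at 7 WAA.

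The locus nearest to the threshold after 1-MCP was XLOC_018156 (VIT_202s0025g00090, chromosome 2, 249429 to 253323), with 8 reference and 6 new forms. Its new forms were listed at 0 in the 3 controls at 6 WAA and held 2 units in each of the 3 treated clusters, so the groups did not overlap. Reference forms held 0, 1 and 0 units in these controls and were listed at 0 in the treated clusters. The balance had an adjusted p of 0.199 (limma). At 7 WAA new forms held 1, 0, 0, 0 and 1 units in controls and 2, 0, 0, 1 and 1 in treated clusters. At 8 WAA they held 1, 0, 1, 2 and 2 units in controls and 2, 1, 1, 1 and 1 in treated clusters, so the groups of both later weeks overlapped.

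Over the weeks, XLOC_004970 (VIT_212s0028g01200, chromosome 12, 1778918 to 1822441), with 9 reference and 2 new forms, lay nearest. New forms held 0.975, 1.02 and 0 units in controls at 6 WAA and were listed at 0 in all 10 later controls, where reference forms held 1 or 2 units. The adjusted p of the balance was 0.064 from 6 to 7 WAA and 0.0788 from 6 to 8 WAA (limma). In treated clusters the new forms were listed at 0 at 6 WAA and held 1 unit in 1 library each at 7 and 8 WAA. From 7 to 8 WAA the smallest p belonged to XLOC_017765 (VIT_202s0025g03570, chromosome 2, 3120274 to 3123898; adjusted p = 0.161, limma). Its new forms held 1, 1, 1, 1 and 2 units in controls at 7 WAA and none in the 5 controls at 8 WAA, while reference forms held 1 unit in 9 of these 10 libraries and 2 in the other.

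The largest differences in share among the 494 loci with a share in all 26 libraries, described without a test, show how far a few units move a locus. From 6 to 8 WAA in controls the gain in the share of new forms was largest in XLOC_027815 (VIT_208s0056g01290, chromosome 8, 2031203 to 2037892), at 59.9 points. Its new forms held 0, 0 and 0 units at 6 WAA and 0, 2, 0, 1 and 3 at 8 WAA, and its reference forms 2, 3 and 1 against 2, 0, 2, 0 and 0. The share of each library at 8 WAA was all or nothing, and 2 of the 5 matched 6 WAA. The next of the 494 loci were XLOC_027447 (59.5 points) and XLOC_021507 (56.3 points). The largest losses among the 494 were in XLOC_000502 (-55.6 points), XLOC_021237 (-55.0 points) and XLOC_013722 (-53.9 points).

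Between treated and control clusters the gain in share among the 494 loci was largest in XLOC_005095 (VIT_212s0028g03940, chromosome 12, 4766749 to 4820579), with 7 reference and 4 new forms, at 34.4 points and in 10 of 13 plants. Its new forms held 1.88, 0, 1.58, 0 and 2 units in controls at 7 WAA and 1, 4, 0, 6 and 2 in treated clusters. At 8 WAA they held 0, 3.48, 3.88, 0 and 0 units in controls and 0.139, 3, 3, 3 and 1.46 in treated clusters. The groups overlapped in both weeks, and the adjusted p of the balance was 0.933 at 7 WAA and 0.94 at 8 WAA (limma). XLOC_008883 and XLOC_018073 followed with 30.8 and 30.7 points, each up in 8 of 13 plants.

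The largest loss after 1-MCP among the 494 loci was in XLOC_011369 (VIT_216s0050g00690, chromosome 16, 17636226 to 17646761), with 3 reference and 10 new forms, at -40.4 points and in 10 of 13 plants, with 1 plant higher. New forms held 2, 1, 3, 1 and 2 units in controls at 7 WAA and 1, 0, 0, 0 and 0 in treated clusters, which met at 1 unit. At 8 WAA they held 1, 3, 3, 0 and 1 units in controls and 2, 1, 1, 0 and 0 in treated clusters. Reference forms of this locus stayed at 0 to 2 units. The adjusted p was 0.756 at 7 WAA and 0.919 at 8 WAA (limma). XLOC_012958 (VIT_217s0000g00240, chromosome 17, 157584 to 168047) had the smallest p of 7 WAA: new forms held 1.5, 0.981, 2, 0.982 and 0.981 units in controls and 0 in all 5 treated clusters. Its groups did not overlap in that week, yet the adjusted p was 0.49 (limma), and at 8 WAA new forms held 0.981 to 1.5 units in 4 of 5 treated clusters.

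Single isoforms were tested in the same way, with 3358 isoforms of these loci in the 1-MCP fit and 2181 in the fit of controls. After 1-MCP, 1 was called at 6 WAA (0.0328% of all isoforms tested), none at 7 WAA (0.00893%) and none at 8 WAA (0%). At an unadjusted p under 0.05, limma gave 232, 155 and 154 of them (6.91%, 4.62% and 4.59%), against 6.56%, 4.88% and 4.40% of all isoforms tested. In controls none was called from 6 to 7 WAA (0.186% of all isoforms tested), 1 from 7 to 8 WAA (0.309%) and 1 from 6 to 8 WAA (0.388%). At an unadjusted p under 0.05, limma gave 103 from 6 to 7 WAA (4.72%, against 5.39% of all). From 7 to 8 WAA it gave 130 (5.96%, against 7.06% of all), and from 6 to 8 WAA 119 (5.46%, against 7.13%). All 3 called isoforms were new forms. How many of the isoforms tested were new forms was not counted, so this is no result about new forms.

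The isoform called after 1-MCP was TCONS_00050740, a new form of 2016 bases in XLOC_018156, the locus described above as nearest in balance. It was listed at 0 in the 3 controls at 6 WAA and held 1 unit in each of the 3 treated clusters. At 7 WAA both the control and the treated clusters held 1, 0, 0, 0 and 1 units, and at 8 WAA both held 1, 0, 0, 1 and 0. The 2 clusters of each plant thus had the same value in both later weeks. The residual SD of this isoform in the fit was 0.00506 on the log2 scale, so its adjusted p of 2.68e-08 (limma) does not measure a spread between plants. Its response at 6 WAA differed from that at 7 WAA (adjusted p = 3.22e-07; 0.0298% of all isoforms called) and at 8 WAA (adjusted p = 3.16e-07; 0.0268%) under the same limit. With whole units and features constant over the fit left out, the adjusted p was 0.072, and without the block for plants it was 0.756.

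From 7 to 8 WAA TCONS_00049635 was called, a new form of 1349 bases in XLOC_017765. It held 1 unit in all 5 controls at 7 WAA and was listed at 0 in all 5 at 8 WAA (limma, adjusted p = 0.0234). The controls within each of these weeks held the same units, so this p-value does not measure a spread between their plants. The isoform also met the filter on low values only with the controls of 7 WAA, where it was high. At 6 WAA the controls held 0, 1 and 1 units. Treated clusters held 1, 0 and 0 units, then 0 in all 5 at 7 WAA, then 0, 1, 0, 0 and 1, which is the opposite direction (adjusted p = 0.863). The call was lost when control 1, 3 or 4 of 7 WAA, or any 1 control of the last week, was left out, with adjusted p-values up to 0.0621.

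From 6 to 8 WAA TCONS_00049927 was called, a new form of 1896 bases in XLOC_017857 (VIT_202s0241g00170). It held 2, 1.4 and 0.997 units in controls at 6 WAA, 1 unit in 1 of 5 at 7 WAA and none in the 5 at 8 WAA (limma, adjusted p = 0.0353). The isoform met the filter on low values in the fit of controls only through 6 WAA, the week where it was high. That adjusted p is therefore no independent support for a fall, and with no filter the isoform was not called. Treated clusters were at or near 0 at 6 WAA and held 0, 2, 1.54, 0 and 0 units at 8 WAA, again the opposite direction (adjusted p = 0.938). The call was lost when any 1 control of 6 or 8 WAA was left out, with adjusted p-values from 0.0524 to 0.165. Both isoform calls over weeks thus rest on 1 or 2 units per library in the controls.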

How the data were processed

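RNA of berry tissue was sequenced, per the labels. For every library the authors deposited a signal for each of 90542 assembled isoforms, and an attribute table with class code, locus, coordinates and, as the other measure, length in bases. The submitters' processing notes list Bowtie2 2.2.3, and the headers are those of Cufflinks output. What program made the deposited signal, and on which genome build and annotation, is not given in the sources used here. Coordinates are as the files give them. Gene names and functions are not given because 0 of the 893 reference identifiers matched the RefSeq gene table that was used.

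The members and lists were chosen with earlier results of these data known. Each value was divided by its library's step, the commonest value above 0.5. Of the locus values of the 893 loci 98.5% to 99.9% were within 0.01 of a whole unit, and of detected isoform values 72.2% to 89.5%. Features were tested if 3 or more of a fit's libraries had a value of 1 or more, and log2(value + 1) was fitted with limma 3.58.1 in R 4.3.3, with Benjamini-Hochberg adjustment over all features tested. Differences are on that scale, which understates changes of low loci. The 1-MCP fit used all 26 libraries with a block for each plant and a treatment coefficient per week. The fit of weeks used the 13 controls. The block follows the series design text, by which both clusters came from the same plant. In the values, the deviations of same-numbered libraries from their group means had correlations of -0.0618 to 0.0847 over locus levels and -0.0538 to 0.0988 over balances, so the values hardly show the pairing. The level and balance fits were also run on each locus's own values shuffled over the libraries, with known changes added to some loci. The outcome is not given here, so the size of change that the fits could find is not stated.

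Loci were named by rule: those past the threshold, the 5 with most isoforms, the 5 with most units, the 3 largest rises and 3 largest falls in share over weeks and with treatment, and the 3 smallest p-values of each balance comparison (given in part). The classes by mean units, and the counts of constant or recurring values, were chosen after the values were seen.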

Additional observations from a re-analysis of the deposited data

Results flagged for a closer look

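A single library stood apart from the other 4 of its group in total units in 23 of the 159 sets of values examined, nearly all of them named loci, where chance gives about 1 in 20 for values on a continuous scale. The values here are whole units, so 1 unit in an otherwise even group is enough, and in all but 5 of them the gap was 1 unit.

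In 4 loci the gap was 2 units or more. At 7 WAA XLOC_001871 held 1 unit in control replicate 3 against 3 in the other 4, XLOC_013722 held 4 in replicate 12 against 1, and XLOC_026253 held 2 in replicate 1 while the other 4 were listed at 0. At 8 WAA XLOC_027532 held 6 units in control replicate 4 against 2 or 3 in the others. In XLOC_013722 the 4 units were 2.51 units of reference and 1.49 of new forms, and in XLOC_027532 the 6 were 3 and 3.

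With a gap of 1 unit, the library that stood apart in controls at 7 WAA held 4 units in XLOC_000390, 3 in XLOC_017765 and XLOC_021237, 2 in XLOC_008883 and XLOC_027815 and 1 in XLOC_012509. In controls at 8 WAA it held 3 units in XLOC_000390 and XLOC_028569 and 2 in XLOC_004970 and XLOC_017765. In treated clusters at 7 WAA it held 3 units in XLOC_009968, XLOC_027447 and XLOC_028569, 2 in XLOC_011369 and 1 in XLOC_001871, XLOC_004970 and XLOC_012509. In treated clusters at 8 WAA it held 2 units in XLOC_005095. In XLOC_003643 treated replicate 4 of 8 WAA held 4 units against 2 to 2.16 in the others.

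The response of isoform TCONS_00050740 to 1-MCP differed between 6 and 7 WAA (limma, adjusted p = 3.22e-07) and between 6 and 8 WAA (limma, adjusted p = 3.16e-07). Its 2 clusters of each plant held the same units in both later weeks, so these p-values do not measure a spread between plants.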

How the results depend on the processing

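The differences in pooled share moved by less than their SD between plants under all alternatives run. Their ranges when 1 plant or library was left out were 0.685 to 2.69, 0.633 to 2.73 and 0.143 to 1.42 points for 1-MCP at 6, 7 and 8 WAA. With loci of at least 15 isoforms the sign turned at 7 WAA for 1-MCP (-1.14 points) and in controls from 6 to 7 WAA (1.07, from -0.127 points) and from 6 to 8 WAA (0.748, from -0.878 points). A minimum of 8 isoforms gave 1607 loci, and of 15 gave 214.

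Counts of called loci or isoforms stayed small in most alternatives. With libraries of that week only and the replicate block, 1-MCP called 6 levels, 3 balances and 26 isoforms at 6 WAA, of 140, 31 and 245 over all features, and 1 balance and 2 isoforms at 7 WAA, of 3 and 6. With no replicate block the isoforms called were 4 at 6 WAA and 1 at 8 WAA, and no level or balance was called. A pseudocount of 0.1 called 1 balance in each comparison of weeks and 0 isoforms from 6 to 8 WAA. With no filter, 2 isoforms were called at 6 WAA, 0 in the comparisons of 7 to 8 and 6 to 8 WAA, and 1 level from 6 to 8 WAA. Whole units left 0 isoforms from 6 to 8 WAA. Without constant features, an alternative added after the data were seen like those on isoforms, whole units gave 0 isoforms at 6 WAA for 1-MCP and 4 from 6 to 8 WAA. Treated libraries in place of controls called 1 balance from 7 to 8 and 1 from 6 to 8 WAA, 6, 2 and 6 isoforms from 6 to 7, 7 to 8 and 6 to 8 WAA, and 1 level from 6 to 8 WAA. They reversed TCONS_00049635 (adjusted p = 0.863), TCONS_00049927 (0.938) and XLOC_012509 (0.726). The mean per group over all 26 libraries gave 1 isoform from 6 to 7 WAA, 0 from 7 to 8 WAA and 0 levels from 6 to 8 WAA, and lost each of the loci and isoforms named as called over weeks, with adjusted p-values of 0.06 to 0.225.

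When 1 plant or library was left out, level counts were 0 to 3, 1 to 2 and 0 to 5 from 6 to 7, 7 to 8 and 6 to 8 WAA, balance counts 0 to 3, 0 and 0 to 2, and isoform counts 0 to 6, 0 to 3 and 0 to 6. For 1-MCP at 6 WAA they were 0 levels, 0 to 1 balances and 2 to 3 isoforms, and at 7 and 8 WAA 0 to 1 isoforms. The cause of these changes was not tested. With 1 or 2 units per locus, the values limit any share to coarse steps, and a balance that did not pass is not shown to be equal.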

Other observations

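Isoform values that were not whole often took the same value again. Of 38884 detected isoform values of the 893 loci, 7073 were not whole units, and for 3308 of these (46.8%) the same isoform had a value within 0.005 of it in another library. In XLOC_022291 (VIT_205s0049g01180) a pair of reference forms stood at 1.48 and 1.52 units in 15 libraries. In XLOC_016390 (VIT_219s0090g01310) a new form stood at 0.93 units in 16 libraries. In XLOC_012958, described above, reference forms stood at 0.019 units in 7 libraries beside 0.981 units of new forms. These counts are of isoform values and include splits between forms of the same class, which leave the share of new forms as it was. How many shares recurred was not counted, and what sets the splits was not tested.

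Units varied less between the libraries of a group than their mean. In each of the 6 groups the ratio of the variance to the mean was averaged over the loci with any units of the forms counted. These were 888 to 891 loci for all forms together, 742 to 788 for reference forms and 698 to 762 for new forms. The sets of loci thus differ. The ratio was 0.397 to 0.430 for all forms together and 0.473 to 0.536 for reference forms. For new forms it was 0.768 to 0.825, the nearest to equality of the 3. The 100 loci with most units of new forms held 34.1% of these units, and the 100 with most units of reference forms held 26.6% of theirs.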
